A study of Mus musculus with 2 samples.

Results

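Vitamin A from the diet is taken up by the liver, stored there as retinyl esters, and released as retinol bound to a carrier. Acids made from it control genes through nuclear receptors. Here 7 mouse genes of these steps were examined in liver: the carrier Rbp4, the esterifying enzyme Lrat, the dehydrogenases Rdh7, Rdh10 and Rdh11, the retinoic acid hydroxylase Cyp26a1, and the retinoic acid responder Rarres1. They were taken by gene symbol from a table of 15526 genes, and all 7 had a row. All 7 also had a mean of at least 10 CPM (read counts scaled to library size by the authors) over both libraries, the level set as the floor for counts of genes.

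The animals were female mice of 22 weeks of age, of genotype NOG-TKm30. NOG mice are severely immunodeficient, and TKm30 is a mutant herpes simplex virus thymidine kinase driven by the transthyretin gene's enhancer and promoter, which is active in hepatocytes. The labels also give C57BL as the background, and the sources used here do not settle which name applies. One group received acetoaceto-o-toluidide (AAOT), the acetoacetyl amide of the aromatic amine o-toluidine, at 0.3% for 4 weeks, and the other received 0%. Liver samples of 3 mice per group were mixed into 1 library, so both libraries carry the transgene and neither has a replicate. Summed over the 15526 listed genes, the libraries held 18801241 reads (control) and 16528533 reads (AAOT). Reads outside these genes are not in the sums. With 1 library per group the differences below have no replicate check and no p-value. The 95% interval given with a ratio covers counting error in reads only, and does not cover differences between mice or preparations.

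Storage and release are shared between liver cell types. Hepatocytes take up dietary retinoid and secrete retinol bound to RBP4, which travels in blood together with transthyretin. Stellate cells hold most of the retinyl ester, made by LRAT. Dehydrogenases of the short-chain family convert retinol and retinal into each other, aldehyde dehydrogenases make retinoic acid, and the CYP26 enzymes break it down. Retinoic acid receptors (RAR), paired with retinoid X receptors (RXR), bind response elements near target genes, and Cyp26a1 is itself a classical target.

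Of the 7 genes, 1 was higher in the AAOT pool by at least 2-fold, Rdh11, and 0 were lower by that much. Of all 7761 genes at the floor, 0.773% passed 2-fold upward and 0.425% downward. At 1.5-fold, Rdh11 was the only member higher and Rarres1 the only member lower, against 2.07% and 1.39% of all genes. These counts were taken on log2((AAOT + 1 CPM)/(control + 1 CPM)), in which the added constant shrinks the differences of weakly expressed genes. The median of this log2 ratio was -0.19 over the 7 members and -0.02 over all genes at the floor. The middle of all genes was narrow, from -0.46 at percentile 2.5 to 0.54 at percentile 97.5, and Rdh11 and Rarres1 lay outside it while the other 5 members lay inside.

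**Figure D1:**
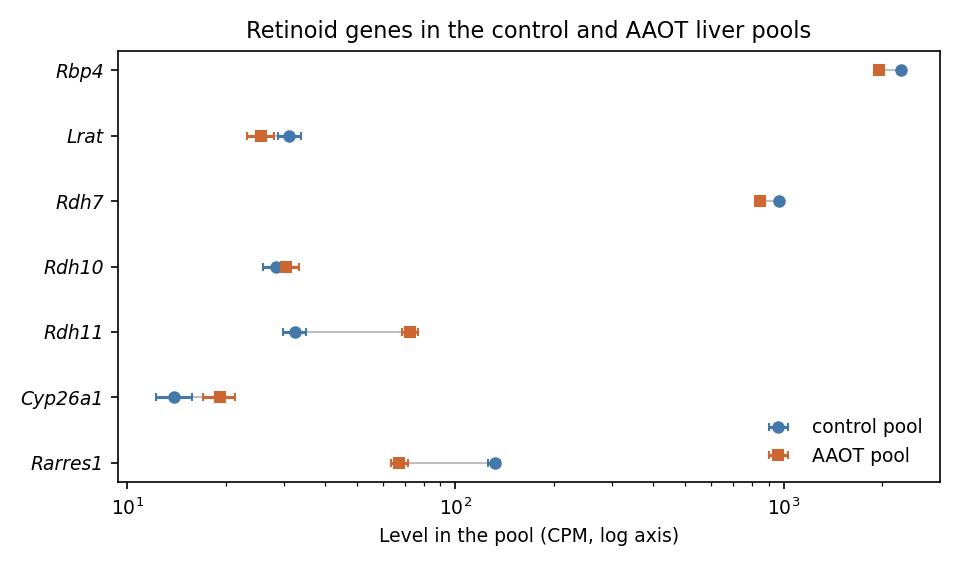
Level of each retinoid gene in the control pool (circles) and the AAOT pool (squares), in CPM on a log axis. Bars are exact 95% Poisson intervals of the read count. Rdh11 moves from 32.4 to 72.8 CPM and Rarres1 from 132 to 67.5 CPM, while the markers of Rdh10 lie close together.

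Rdh11 encodes a microsomal enzyme that mainly reduces all-trans-retinal to retinol, and its gene is known as a target of the sterol regulatory factors SREBP in mouse liver. It lies on chromosome 12 from 79174233 to 79191855 (RefSeq, GRCm38.p6, minus strand). RefSeq gives it more than 1 start site, and the table holds 1 value per gene, so the sites cannot be told apart. Because Rdh11 is the member with the largest ratio, the window of 250 bases before to 50 bases after both starts is shown 5′ to 3′ on the gene's strand, from RefSeq on GRCm38.p6. The capitals in the inner window mark the 6-base E-box CACGTG, the letters that many basic helix-loop-helix factors bind.
Rdh11 outer start, chr12:79191806-79192105, minus strand: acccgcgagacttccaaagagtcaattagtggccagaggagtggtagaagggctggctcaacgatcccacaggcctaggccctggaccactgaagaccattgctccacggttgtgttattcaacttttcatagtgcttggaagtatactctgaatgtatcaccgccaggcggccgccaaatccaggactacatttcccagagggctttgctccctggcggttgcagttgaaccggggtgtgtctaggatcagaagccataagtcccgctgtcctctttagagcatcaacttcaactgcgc
Rdh11 inner start, chr12:79190912-79191211, minus strand: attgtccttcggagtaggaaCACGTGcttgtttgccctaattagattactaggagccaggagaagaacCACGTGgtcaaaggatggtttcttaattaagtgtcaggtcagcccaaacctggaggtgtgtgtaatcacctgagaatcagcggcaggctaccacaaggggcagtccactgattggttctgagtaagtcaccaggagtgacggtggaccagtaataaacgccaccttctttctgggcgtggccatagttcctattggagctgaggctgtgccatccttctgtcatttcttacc

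The E-box occurred at 2 places in the inner window, from 230 to 225 and from 182 to 177 bases before that start, and was absent as letters from the outer window. At least 1 E-box was present in 7.15% of 32851 RefSeq windows of this length, and at least 2 in 0.594%. Both strands were searched. Such matches describe letters and not factor binding.

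Rdh11 was at 32.4 CPM in the control pool (602 reads) and at 72.8 CPM in the AAOT pool (1218 reads). The AAOT pool was thus 2.25-fold higher (95% counting interval 2.03 to 2.48), and 41 of the 7761 genes had a larger log2 ratio. All 50-base stretches of its longest coding transcript were unique to it among GENCODE transcripts (100%), and no other gene's exons overlapped its own. Its neighbour Vti1b, a vesicle fusion gene 1.55 kb away, was at 20.7 and 20.3 CPM. Of the 4 genes at the floor within 300 kb of Rdh11, 1 differed by at least 1.5-fold, Rad51b, a recombination gene, which was 1.68-fold lower (1.47 to 1.93).

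Rdh7, a hepatocyte dehydrogenase of cis-retinols and steroids, went the other way by a small ratio. It lies on chromosome 10 from 127884027 to 127889247. It measured 966 CPM in control liver and 847 CPM under AAOT, which is 1.14-fold lower (1.12 to 1.17). Of its stretches 86.8% were unique, the rest being shared mostly with Rdh18-ps, so some reads could be split between copies by the counting. Rdh10, the membrane-bound enzyme that supplies retinal for retinoic acid synthesis in embryos, lies on chromosome 1 from 16105882 to 16132550. It was at 28.3 and 30.5 CPM, a ratio of 1.08, with equality inside its interval of 0.953 to 1.22. Its counting intervals in the pools overlapped (26.0 to 30.9 and 27.9 to 33.3 CPM), and a difference was not detectable at this depth.

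The 3 dehydrogenase genes together measured 1027 CPM in control liver and 950 CPM under AAOT, a sum 1.08-fold lower (1.06 to 1.10) that is mostly Rdh7. Within their reads the share of Rdh11 was 3.16% (2.91 to 3.42, exact binomial interval) in the control pool and 7.66% (7.25 to 8.08) in the AAOT pool. Because Rdh7 dominates the sum, the sum could not show the higher Rdh11 level. Neither the sum nor the share is corrected for transcript length.

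Rdh7 sits in a cluster of related dehydrogenases, and its neighbours did not share 1 direction. The nearest at the floor, Sdr9c7, 9.29 kb away, was at 126 and 102 CPM, 1.24-fold lower (1.16 to 1.32). Rdh9, 91.3 kb away, was at 110 and 80.1 CPM, 1.37-fold lower (1.28 to 1.47), but only 7.66% of its stretches are its own. Rdh16, 68.2 kb away, was at 126 and 167 CPM, 1.32-fold higher (1.25 to 1.40), with 84.9% unique stretches. Hsd17b6, which oxidises steroids and retinol and was chosen here for its place in the cluster, was at 419 and 334 CPM, 1.25-fold lower (1.21 to 1.30), with 86.5% unique stretches. Rdh7, Rdh9, Rdh16 and Hsd17b6 summed to 1620 CPM in control liver and 1428 CPM under AAOT, 1.13-fold lower (1.12 to 1.15). This value is less exposed to reads divided among these 4 genes. It does not cover sequence shared with genes outside the sum, mostly Rdh16f1 for Rdh9 and Hsd17b6, and Rdh18-ps for Rdh7. Of 13 genes at the floor within 300 kb of Rdh7, 0 differed by at least 1.5-fold.

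**Figure D2:**
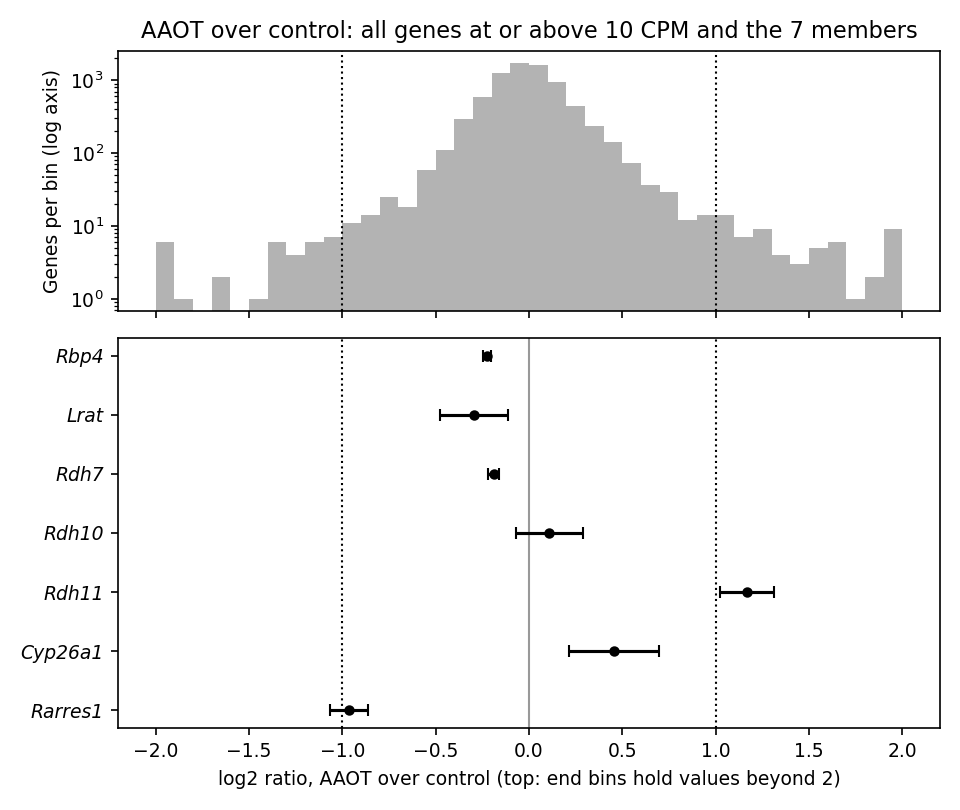
Top, log2((AAOT + 1 CPM)/(control + 1 CPM)) of the 7761 genes at the floor, as genes per bin on a log axis, with the 14 genes beyond 2 in either direction placed in the end bins. Bottom, log2 of the plain CPM ratio of each member with its exact 95% counting interval, the dotted lines marking 2-fold. The interval of Rdh11 lies above the upper line, that of Rarres1 crosses the lower line, and that of Rdh10 crosses 0.

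Rarres1, also called tazarotene-induced gene 1, was named for its response to a synthetic retinoid acting on RAR and encodes a membrane protein related to latexin. It lies on chromosome 3 from 67478886 to 67515523. It was at 132 CPM in the control pool (2445 reads) and at 67.5 CPM in the AAOT pool (1130 reads). The AAOT pool was 1.95-fold lower (1.82 to 2.09), just short of 2-fold, with 39 of the 7761 genes lower still. All of its stretches were unique (100%) and no other gene's exons overlapped it. The flanking genes Gfm1, a mitochondrial elongation factor 3.82 kb away, and Mfsd1, a lysosomal transporter 67.2 kb away, had ratios of 1.03 (0.951 to 1.11) and 0.966 (0.914 to 1.02). The intervals of both neighbours held equality.

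Cyp26a1, the main hepatic enzyme that hydroxylates all-trans-retinoic acid for removal, lies on chromosome 19 from 37697738 to 37701536 on the plus strand. Its promoter window holds a direct repeat of the type that RAR and RXR bind, so it is shown here from RefSeq on GRCm38.p6, 5′ to 3′, with the repeat in capitals.
Cyp26a1, chr19:37697558-37697857, plus strand: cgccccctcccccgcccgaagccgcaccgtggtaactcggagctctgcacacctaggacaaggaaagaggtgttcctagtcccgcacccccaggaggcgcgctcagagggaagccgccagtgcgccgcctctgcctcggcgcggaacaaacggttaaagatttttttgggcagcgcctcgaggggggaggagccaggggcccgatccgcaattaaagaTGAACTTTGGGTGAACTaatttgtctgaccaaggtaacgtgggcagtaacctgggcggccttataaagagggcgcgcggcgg

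The repeat reads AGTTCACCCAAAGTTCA on the opposite strand, and lies 32 to 16 bases before the start on which this window is placed. That start is downstream of the gene's first base at 37697738, so the repeat falls inside the gene bounds given above. The search was for the motif known as DR5, in which 2 receptor core units of 6 bases in the same orientation have 5 bases between them, on both strands. Of 32851 windows, 0.0974% held such a repeat, and among the 9 windows found for 6 of the 7 members it was present in that of Cyp26a1 only. The motifs DR4 and DR1, the same units with 4 bases or 1 base between them, were in 0.0822% and 0.222% of all windows and in none of the 9. The letters TGACNNNGC, the core of the antioxidant response element, were in 12.4% of all windows and also in none of the 9.

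Cyp26a1 was at 13.9 CPM in the control pool (258 reads) and 19.1 CPM in the AAOT pool (319 reads), the lowest read numbers among the members. The ratio was 1.37 (1.16 to 1.62), and 4.05% of all genes had a larger log2 ratio. Its relative Cyp26b1, which has the same activity, was at 17.0 and 22.0 CPM, a ratio of 1.30 (1.11 to 1.51). The intervals of Cyp26a1 and Cyp26b1 overlap widely. Cyp26a1 made up 45.0% (40.9 to 49.2) of the joint reads in the control pool and 46.4% (42.7 to 50.2) in the AAOT pool. These shares are not corrected for transcript length. Per kb of the longest coding transcript, Cyp26a1 was at 7.76 and 10.6 CPM, above Cyp26b1 at 3.77 and 4.89 CPM. Their sum was 1.33-fold higher (1.19 to 1.49), at 30.9 and 41.1 CPM. Cyp26c1, which stands next to Cyp26a1 and was chosen here for that place, had 5 reads in each pool.

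Rbp4, the plasma carrier of retinol and the most abundant member, lies on chromosome 19 from 38116620 to 38125321. It was at 2278 CPM in the control pool (42306 reads) and at 1952 CPM in the AAOT pool (32658 reads), 1.17-fold lower (1.15 to 1.18). Although this depth makes the counting interval narrow, 987 of the 7761 genes (12.7%) had a lower log2 ratio, so a ratio of this size was common between these pools. Transthyretin, Ttr, which binds the RBP4 protein in plasma and whose promoter drives the transgene, was at 5541 and 4319 CPM, 1.28-fold lower (1.27 to 1.30). Because Ttr was lower by the larger ratio, Rbp4 formed 29.1% (28.9 to 29.4) of their joint reads in the control pool and 31.1% (30.8 to 31.4) in the AAOT pool. The liver retinol-binding protein receptor gene Stra6l was at 195 and 209 CPM, a ratio of 1.07 (1.02 to 1.12).

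Lrat, which joins retinol to a fatty acid from phosphatidylcholine, lies on chromosome 3 from 82892582 to 82903974. It was at 31.2 CPM in the control pool (580 reads) and at 25.5 CPM in the AAOT pool (426 reads), 1.23-fold lower (1.08 to 1.39), with 7.90% of all genes lower. In liver Lrat is a marker of stellate cells, and a list of 12 other stellate cell markers was listed in full. All 12, of which 5 were below the floor, had a log2 ratio below 0. So did 7813 of all 15526 listed genes, and 53.6% of those at the floor. Among the 7 stellate markers at the floor, the counting interval lay below equality for 5 and held it for 2. Over all 7761 genes at the floor, it lay below equality for 20.8% and above it for 18.7%. The 7 stellate markers at the floor had a median of -0.21, between -0.29 and -0.07, with 0 past 1.5-fold, and the 12 summed to 721 CPM in control liver and 632 CPM under AAOT, 1.14-fold lower. The matrix protein gene Ecm1 was at 157 and 136 CPM, the proteoglycan gene Dcn at 159 and 130 CPM, and the growth factor gene Hgf at 25.5 and 20.8 CPM. Scaling both libraries to the same total left 11 of the 12 below 0.

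The 6 markers of activated stellate cells and fibroblasts were also below 0 in all cases, though 4 of them were below the floor. Of these 4, Acta2, the smooth muscle actin, was at 5.60 and 2.87 CPM (104 and 48 reads), and Timp1 had 2 and 1 reads. The 2 at the floor were the collagen genes Col1a2, 1.08-fold lower (0.922 to 1.28), and Col3a1, 1.09-fold lower (0.974 to 1.23). Both intervals held equality. Lrat thus had the direction of the stellate markers, and whether fewer such cells or less of these RNAs per cell were present cannot be told apart in pooled liver. The part of the stellate markers in the Lrat value was not tested. This direction was not particular to stellate markers. All 5 cholangiocyte markers were below 0 and summed to 44.8 and 35.3 CPM, 1.27-fold lower, and the 1 at the floor, the osteopontin gene Spp1, was at 34.4 and 26.3 CPM, 1.31-fold lower (1.16 to 1.48). Of 7 hepatocyte markers 5 were below 0, with a sum 1.12-fold lower. Sinusoidal endothelial markers had a median of -0.04 and Kupffer cell markers 0.08.

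**Figure D3:**
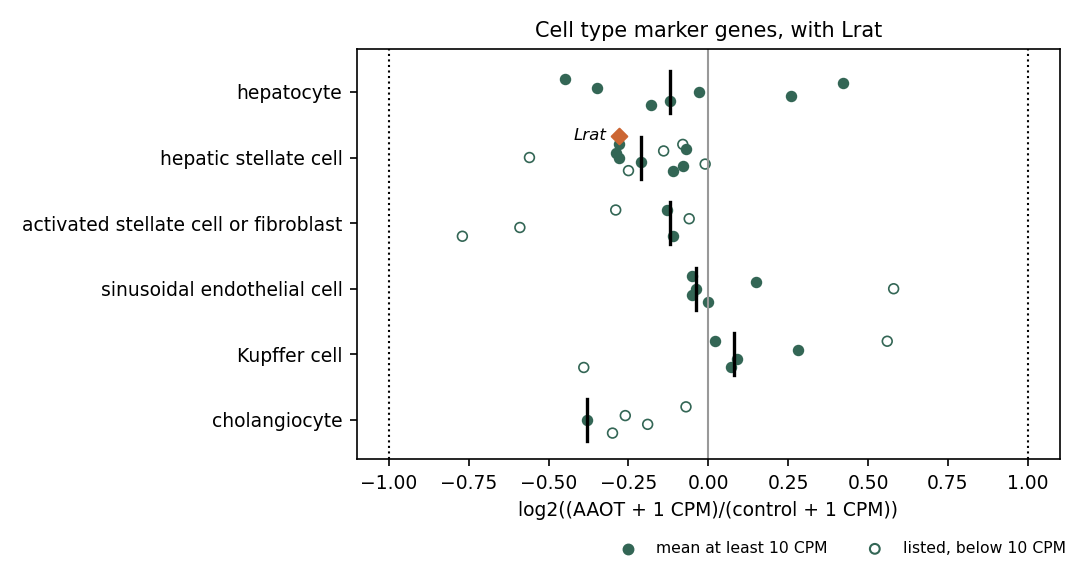
log2((AAOT + 1 CPM)/(control + 1 CPM)) of marker genes for 6 cell types, filled where the mean of both pools was at least 10 CPM and open where it was lower. Black bars are medians of the filled points, the diamond is Lrat, and dotted lines mark 2-fold. All 12 stellate cell markers and all 5 cholangiocyte markers lie to the left of 0, as does Lrat at -0.28.

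The order of the members could be compared only per length, as CPM per kb of the longest coding GENCODE transcript. In the control pool it ran from Rbp4 at 1962 CPM per kb through Rdh7 at 576, Rarres1 at 99.4, Rdh11 at 9.94, Rdh10 at 7.90 and Cyp26a1 at 7.76 to Lrat at 5.84. The counting intervals of Rdh10 and Cyp26a1 overlapped there (7.24 to 8.60 and 6.84 to 8.76), and those of the other neighbours in the order did not. In the AAOT pool Cyp26a1, at 10.6 CPM per kb, stood above Rdh10, at 8.51, and no neighbours overlapped. Rdh11 kept the fourth place at 22.3 CPM per kb, nearer to Rarres1, at 51.0 CPM per kb, than in the control pool.

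Beyond the members, 73 other genes of retinoid handling were grouped into 8 lists, of which 60 were listed in the table and 40 reached the floor. Past 2-fold, 2 of the 40 were higher and 0 lower, and past 1.5-fold 5 were higher and 0 lower, beside the shares of all genes given above. Their median log2 ratio was 0.04, beside -0.02 for all genes. The differences past 1.5-fold lay in 2 lists, that of ester hydrolysis and that of retinal oxidation.

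Genes of the retinal oxidation list differed in direction. Their activity on retinal, that of Aldh1a7 included, was not examined here. Aldh1a7, a close relative of the retinal dehydrogenase gene Aldh1a1, measured 110 CPM in control liver and 336 CPM under AAOT, 3.07-fold higher (2.91 to 3.23). Aldh1a1, the main retinal dehydrogenase of adult liver, was at 803 and 1563 CPM, 1.95-fold higher (1.91 to 1.99). The pair share some sequence, with 92.5% and 93.5% unique stretches, and their sum was 2.08-fold higher (2.04 to 2.12). The aldehyde oxidase gene Aox1 was at 94.6 and 155 CPM, 1.64-fold higher (1.55 to 1.75). The more abundant aldehyde oxidase gene Aox3 went the other way, at 511 and 401 CPM, 1.27-fold lower (1.24 to 1.32), and Aldh8a1, a retinal dehydrogenase relative, had a ratio of 0.998 (0.961 to 1.04). Both are named outside the rule, with their values known. Of the 5 list members at the floor, 3 were past 1.5-fold upward and 0 downward, and the median was 0.71. Without the floor, which brings in 2 genes of very few reads, it was 0.00. Aldh1a2 and Aldh1a3, the retinal dehydrogenases best known from embryos, had 5 and 7 reads in control liver and 3 reads each under AAOT.

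Among genes of ester making and hydrolysis, 8 reached the floor, of which 2 passed 1.5-fold upward and 0 downward, and the median was 0.22. The carboxylesterase gene Ces1g was at 122 and 300 CPM, 2.46-fold higher (2.34 to 2.59), and Ces1d, a hydrolase of lipid esters, was at 590 and 1063 CPM, 1.80-fold higher (1.76 to 1.85). Lipe, the hormone-sensitive lipase, was at 10.2 and 13.5 CPM, a ratio of 1.33 (1.09 to 1.62). Pnpla3, a lipase of lipid droplets that also cleaves retinyl esters, was below the floor and was picked with its values known. Its reads numbered 44 in control liver and 182 under AAOT, 4.59-fold higher (3.29 to 6.53).

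**Figure D4:**
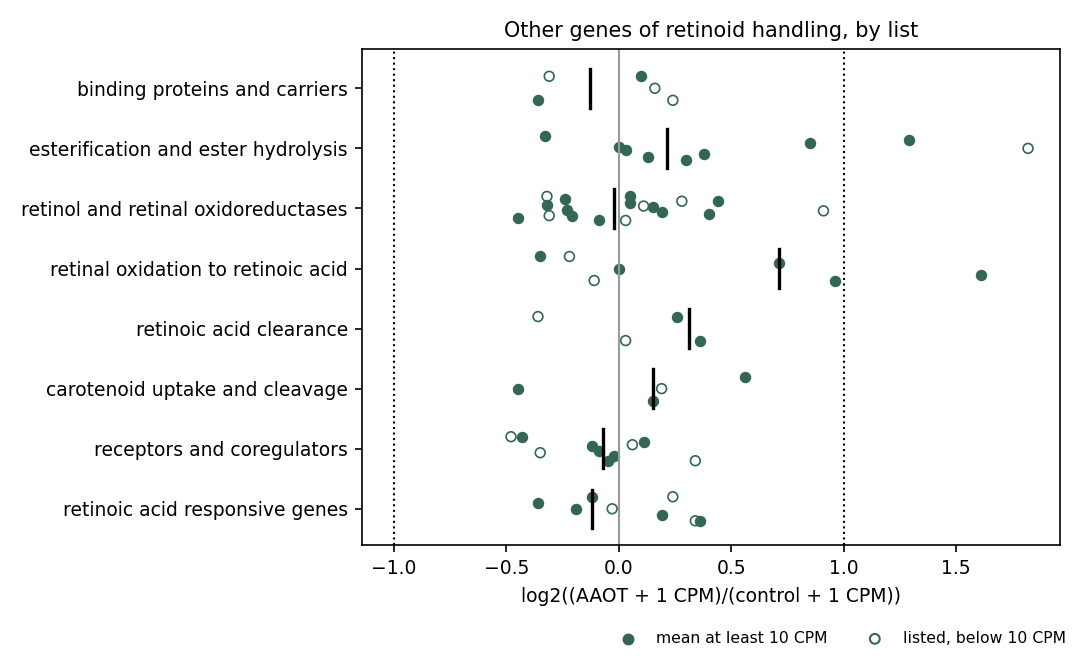
log2((AAOT + 1 CPM)/(control + 1 CPM)) of the other genes of retinoid handling in 8 lists, filled where the mean of both pools was at least 10 CPM and open where it was lower. Black bars are medians of the filled points and dotted lines mark 2-fold. Filled points beyond the upper line are Aldh1a7, at 1.61, and Ces1g, at 1.29, and the open point at 1.82 is Pnpla3.

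Retinol dehydrogenases and related enzymes outside the members showed no common direction, with 6 of 12 at the floor above 0, 6 below, 0 past 1.5-fold and a median of -0.02. The most abundant was Adh1, the alcohol dehydrogenase that oxidises excess retinol, at 1181 and 1598 CPM, 1.35-fold higher (1.33 to 1.38). In retinoic acid clearance both genes at the floor were higher, Cyp26b1 and Cyp2c39, a retinoic acid hydroxylase at 777 and 930 CPM, with a ratio of 1.20 (1.17 to 1.22) and 88.0% unique stretches. Of 3 genes of carotenoid uptake and cleavage, the scavenger receptor gene Scarb1 was 1.37-fold lower (1.32 to 1.43), the fatty acid receptor gene Cd36 was 1.49-fold higher (1.33 to 1.67), and the cleavage enzyme gene Bco1 had a ratio of 1.12 (0.911 to 1.38).

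The receptors at the floor were close to equal in the pools. Of 6 receptor and coregulator genes at the floor, 0 were past 1.5-fold and the median was -0.07. The corepressor gene Ncor1 was at 196 and 211 CPM, a ratio of 1.08 (1.03 to 1.13), and the coregulator gene Nrip1 had a ratio of 0.918 (0.797 to 1.06). Rara and Rxra, the leading retinoid receptors of liver and picked with their values known, had ratios of 0.967 (0.849 to 1.10) and 0.983 (0.957 to 1.01). Of the 4 receptor genes below the floor, Ppard was 1.46-fold lower (1.14 to 1.88) and Rarg 1.32-fold lower (1.01 to 1.74). Rxrg had a ratio of 1.05 (0.817 to 1.34), and Rarb is given in the next paragraph.

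Genes known to respond to retinoic acid lay on both sides of equality. Of the 5 at the floor, 2 were above 0 and 3 below, 0 were past 1.5-fold, and the median was -0.12. Admitting genes from 1 CPM upward turned that value positive, to 0.19, and admitting every gene gave 0.08. Rarres2, which encodes chemerin and like Rarres1 was named after tazarotene, was at 173 and 134 CPM, 1.29-fold lower (1.22 to 1.36). The transglutaminase gene Tgm2 was at 159 and 139 CPM, 1.15-fold lower (1.08 to 1.21). On the other side, Cyp26b1 was higher, as given above, and Dhrs3, a retinal reductase gene, was at 198 and 226 CPM, a ratio of 1.14 (1.09 to 1.19). The receptor gene Rarb, below the floor, had 126 and 148 reads, a ratio of 1.30 (1.02 to 1.67). Dhrs3 and Rarb were picked with their values known. Cyp26a1 and Rarres1, both known targets of retinoic acid receptors, thus stood on opposite sides of equality, at 1.37-fold higher and 1.95-fold lower.

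The liver label was checked on hepatocyte markers, of which Alb, the albumin gene, was at 57688 and 50830 CPM. Hepatocyte markers had a median of -0.12 over 7 genes, between -0.45 and 0.42. The 3 neutrophil, 1 adipocyte and 2 pancreas markers listed were below the floor, and 0 of 5 lymphocyte markers were listed.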

How the data were processed

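The authors deposited 1 table of CPM for 2 pooled liver libraries, each mixed from samples of 3 mice, per the series' design text. RNA came from columns, ribosomal RNA was depleted and libraries kept strand, per the labels' protocols. Per the submitters' processing notes, edgeR, RSEM, Bowtie2 and Trimmomatic 0.38 were used on mm10, in no stated role or order. For the gene models nothing is stated. Every CPM value was a whole multiple of 1 step per column (100%, relative tolerance 1e-06), which gave back reads, and TMM factors of edgeR 4.0.16 from those reads equalled the authors' scaling. With 1 library per group no count model was fitted. Ratios are plain CPM ratios with exact (Clopper-Pearson) 95% intervals on reads, and counts use an added constant of 1 CPM and a floor of 10 CPM. Reads are not independent molecules, so intervals cover counting error only.

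The members and lists were chosen with earlier results of these data known. From each list the text names genes past 2-fold, up to 3 farthest from equality, Ttr and genes at 1000 CPM or more. One gene that this rule takes is not reported here. The motifs, the neighbours, the sums and the shares were chosen after values were seen. Sequences and positions are RefSeq's (GRCm38.p6). Unique stretches are 50-base words of the longest coding GENCODE M21 transcript found in no other gene. The steps were tested on simulated reads. R 4.3.3, matplotlib 3.10.9, scipy 1.17.1, pandas 2.3.3, numpy 2.4.6 and Python 3.11.15 were used.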

Additional observations from a re-analysis of the deposited data

How the results depend on the processing

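The 7 member ratios kept their direction in all 49 recomputations, over 5 other scalings and added constants of 0.1 and 5 CPM. Rdh11 ranged from 1.06 to 1.19 and Rarres1 from -0.96 to -0.91 (log2). The member median of -0.19 became -0.15 with columns scaled to the same total and -0.14 when Rn45s, the ribosomal precursor, was also left out. At a size of 4-fold, 0 members and 0 of the other retinoid pathway genes were higher, and over all genes 8 were higher and 6 lower. With a floor of 50 CPM, 37 of all genes were at least 2-fold higher and 15 lower, and 94 and 52 passed 1.5-fold. With a floor of 1 CPM, 55 were at least 2-fold lower, and 320 were higher and 211 lower at 1.5-fold. With no floor, 94 were at least 2-fold higher and 60 lower, and 367 and 248 passed 1.5-fold. The median of the retinal oxidation list was 0.00 with no floor. Of 88 recomputed list medians 10 had the other sign, and that of the oxidoreductases ran up to 0.05. The medians of the binding, carotenoid and retinoic acid responsive lists changed sign with the floor, at 0.10 and -0.45 and 0.19 with floors of 1, 50 and 1 CPM. No paired analysis was possible because each group has 1 library, and no replicate could be left out. Depth limits Cyp26a1 most among the members, with 258 and 319 reads.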
